A study of Mus musculus and Sus scrofa with 18 samples.

Results

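Striatal projection neurons release peptides beside GABA, and 10 genes of that peptide system were followed through the striatum of WT and Huntington's disease (HD) knock-in mice. They comprise 5 peptide precursors (Penk, Pdyn, Tac1, Cartpt and Nts) and 5 receptors (Oprm1, Oprd1, Oprk1, Oprl1 and Tacr1), picked by name for their known function. All 10 of 10 were found among the 55357 Ensembl genes of the mouse count table, and all 10 passed the filter on low counts, which kept 19463 genes.

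RNA came from the striatum of 9 mice, 3 in each of 3 groups, 1 mouse per library. The WT mice were injected with AAV-Ctrl gRNA, a non-targeting guide, and received no CasRx. Both HD groups were heterozygous HD 140Q-KI mice, a line whose mutant Htt allele starts with a human first exon bearing a long CAG repeat, and both received the RNA-cutting nuclease CasRx under the CAG promoter. Untreated HD mice were given AAV-CasRx/Ctrl gRNA and treated HD mice AAV-CasRx/HTT gRNAs, the guides that target human HTT exon 1. AAV9 was injected stereotaxically into the striatum at 6 months of age and tissue was taken 1.5 months later. WT mice thus lack both the knock-in allele and CasRx, and the effects of these cannot be told apart in a comparison of HD with WT mice. Untreated and treated HD mice share both, and differed by the guides, in part by sex and in the level of cortical markers given below. Libraries were primed with oligo-dT and read the 3′ ends of mRNA, so a value is a count of reads near the end of a transcript.

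The projection neurons of the striatum form the indirect pathway, which carries dopamine D2 receptors and enkephalin from Penk, and the direct pathway, which carries D1 receptors with dynorphin from Pdyn and substance P from Tac1. Enkephalins act on the delta and mu opioid receptors (Oprd1, Oprm1) and dynorphins on the kappa receptor (Oprk1), all of which couple to inhibitory G proteins, whereas substance P excites cells through the NK1 receptor (Tacr1), carried in the striatum mainly by interneurons. Loss of enkephalin from the indirect pathway is among the best known early changes of HD.

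Total counts were 27184356 to 32102121 per mouse. Levels are given as CPM, which divides the reads of a gene by the TMM-normalised depth of its library. Fold changes come from the quasi-likelihood test of edgeR, adjusted over all 19463 genes by the Benjamini-Hochberg method and named edgeR from here on. Differentially expressed genes (DEGs) were those that changed at least 2-fold at an unadjusted P under 0.05. Reads of 4 Y-linked genes (Uty, Kdm5d, Ddx3y and Eif2s3y) showed that the groups were not matched for sex. All 3 WT mice and untreated mouse 1 had 3435 to 5005 such counts, and the other 5 mice had 0, so sex and group cannot be told apart between treated and WT mice. Markers of neighbouring tissue also differed between libraries, and whether the dissection differed was not tested. Summed markers of cortical neurons, which the striatum should lack, were 238 to 896 CPM in WT (highest in WT mouse 1), 1027 to 1211 CPM in untreated and 705 to 769 CPM in treated mice. Markers of the choroid plexus ran from 36.3 to 3770 CPM, and those of the hypothalamus from 4.60 to 9.95 CPM. The defining markers of striatal projection neurons, such as Ppp1r1b and Drd1, were present in every library. The edgeR P-values rest on 1 estimate of spread per gene, shared by all 3 groups of 3 mice and drawn in part from other genes.

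Penk, the precursor of the enkephalins (ENSMUSG00000045573, chromosome 4), was lower in all 6 HD mice. It was counted at 752, 1012 and 1157 CPM in the WT mice, at 159, 224 and 243 CPM in the untreated and at 301, 319 and 330 CPM in the treated mice. No pair of groups overlapped, and the treated mice lay between the others. The means were 974 ± 205, 209 ± 43.9 and 317 ± 14.7 CPM (SD, n = 3 mice each), so that untreated mice held 21.4% and treated mice 32.5% of the WT level. Penk fell by 2.22 on the log2 scale in untreated against WT mice (standard error 0.19, a 4.67-fold fall, adjusted p = 0.000343 by edgeR). In treated against WT mice it fell by 1.62 (standard error 0.18, 3.07-fold, adjusted p = 0.00331 by edgeR). Between the HD groups, Penk was 1.52-fold higher in treated mice, with a log2 difference of 0.60 (95% interval 0.20 to 1.01, adjusted p = 0.886 by edgeR).

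Pdyn, the precursor of the dynorphins (ENSMUSG00000027400, chromosome 2), had the same order of groups. Its values were 84.0, 119 and 135 CPM in WT, 42.2, 47.3 and 56.2 CPM in untreated and 66.9, 59.4 and 81.3 CPM in treated mice. Every HD mouse was below every WT mouse, and every treated mouse above every untreated one, although treated mouse 3 came within 3 CPM of WT mouse 1. Pdyn fell 2.32-fold in untreated mice (log2 fold change −1.21, standard error 0.18, adjusted p = 0.00513 by edgeR). In treated mice its log2 fold change against WT was −0.70 (standard error 0.18), which passed an unadjusted P of 0.00351 but neither the 2-fold limit nor the adjustment (adjusted p = 0.0677 by edgeR). The difference of treated from untreated mice was 0.51 (95% interval 0.10 to 0.92, adjusted p = 0.886 by edgeR).

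Tac1 encodes substance P and neurokinin A (ENSMUSG00000061762, chromosome 6) and was lower in the untreated mice, while the treated mice lay inside the WT range. The 3 WT mice had 147, 181 and 210 CPM, the untreated mice 89.6, 101 and 87.7 CPM and the treated mice 156, 156 and 171 CPM. All untreated mice were lower than all other mice. Tac1 fell by 0.95 on the log2 scale in untreated against WT mice (standard error 0.12, adjusted p = 0.00214 by edgeR), a 1.93-fold fall just short of the 2-fold limit. Treated against WT mice differed by −0.15 (95% interval −0.42 to 0.11, adjusted p = 0.497 by edgeR), and the treated level was 89.8% of WT. Treated mice were 1.74-fold above untreated mice (log2 difference 0.80, standard error 0.12). That difference had the smallest P of the 10 genes between the HD groups, 7.69e-05, but an adjusted p of 0.348 by edgeR, against 7.08e-06 by DESeq2.

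Nts, the precursor of neurotensin (ENSMUSG00000019890, chromosome 10), was counted far less often, with 53 to 301 reads per library. The values were 7.90, 9.47 and 10.004 CPM in WT, 1.86, 4.63 and 4.25 CPM in untreated and 5.88, 5.47 and 7.46 CPM in treated mice. The groups did not overlap, and untreated mouse 1 was the lowest of the 9. Nts fell 2.54-fold in untreated mice (log2 fold change −1.35, standard error 0.30, adjusted p = 0.0249 by edgeR). The treated mice differed from WT by −0.54 (95% interval −1.20 to 0.12, adjusted p = 0.327 by edgeR) and from untreated mice by 0.81 (95% interval 0.13 to 1.48, adjusted p = 0.886 by edgeR).

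Cartpt, the precursor of the CART peptides (ENSMUSG00000021647, chromosome 13), was the 1 precursor that passed no test. It was counted at 4.68, 5.51 and 4.45 CPM in WT, 3.72, 6.35 and 3.57 CPM in untreated and 3.80, 2.14 and 6.88 CPM in treated mice. The groups overlapped throughout, and the treated mice alone spread over 3-fold. The log2 fold change of untreated against WT mice was −0.10 with a 95% interval of −0.97 to 0.76. A fall of close to 2-fold and a smaller rise, of up to 0.76 on the log2 scale, thus both lay within the interval. The other intervals were −1.05 to 0.67 for treated against WT and −0.95 to 0.78 for treated against untreated mice.

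**Figure D1:**
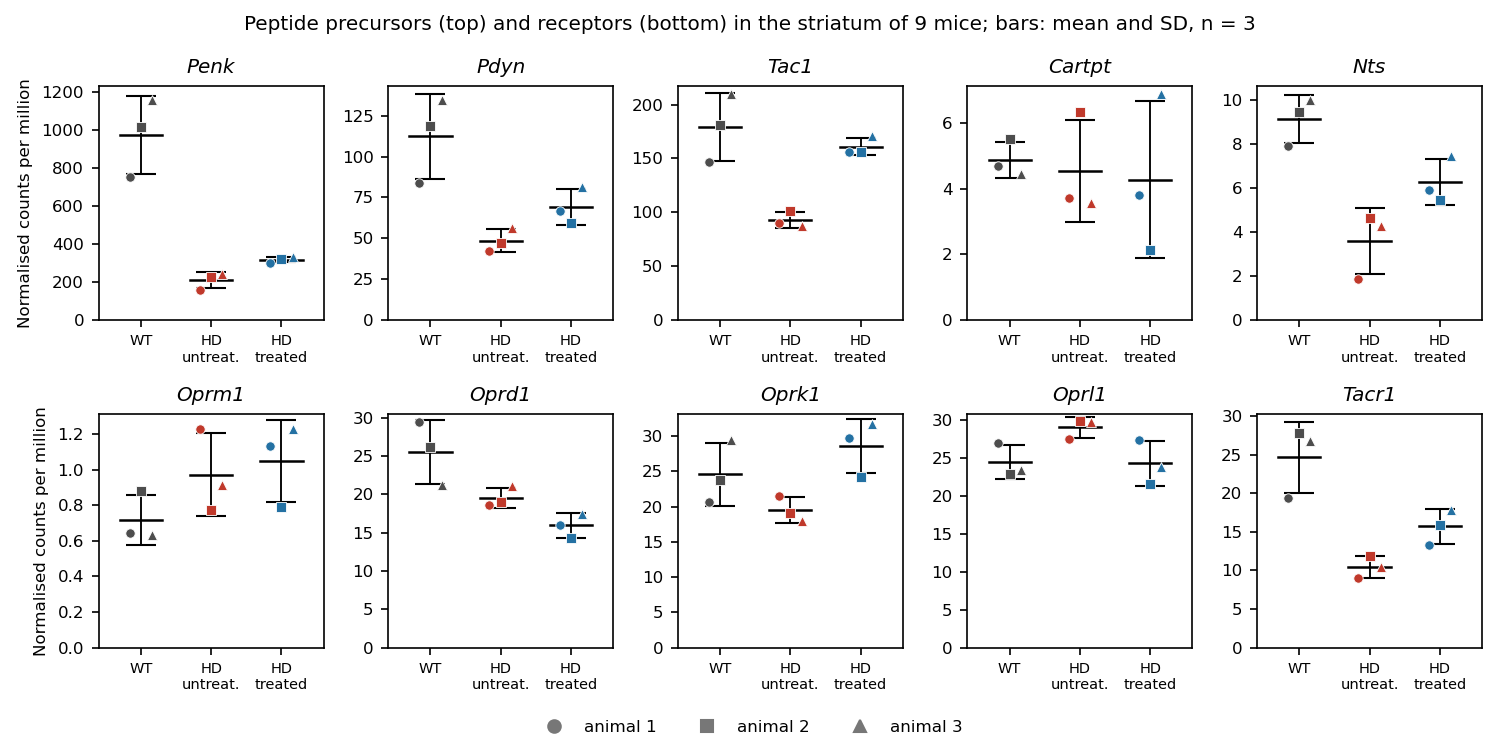
TMM-normalised CPM (y axis, from 0) of the 10 genes in the 3 groups of 3 mice (x axis), 1 point per mouse, with bars for mean and SD and the marker shape giving the mouse number within its group. For Penk the 3 untreated mice sit between 159 and 243 CPM and the 3 treated mice between 301 and 330 CPM, all below the WT mice.

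Of the 5 precursors, 4 fell in untreated mice, and the wide interval of Cartpt left its direction undecided. The sequences just upstream of the starts of Pdyn, Tac1, Nts and Cartpt are shown as a description, and a link to their levels was not tested. They are the 250 bases before a RefSeq transcript start in GRCm38.p6, and 8 of the 10 genes had such a window in the RefSeq table used (Penk and Oprk1 had none). Windows were searched on both strands for TGACGTCA, the cyclic AMP response element (CRE) through which neuronal activity and CREB are known to drive many peptide genes, and for its core CGTCA, which lies inside the full element. Capitals mark matches to CGTCA or its complement. The windows read 5′ to 3′ on the strand of the gene and lie at chr2:129699939-129700188 (minus strand, the first of 2 starts), chr6:7554811-7555060 (plus strand), chr10:102490419-102490668 (minus strand) and chr13:99900684-99900933 (minus strand).
Pdyn: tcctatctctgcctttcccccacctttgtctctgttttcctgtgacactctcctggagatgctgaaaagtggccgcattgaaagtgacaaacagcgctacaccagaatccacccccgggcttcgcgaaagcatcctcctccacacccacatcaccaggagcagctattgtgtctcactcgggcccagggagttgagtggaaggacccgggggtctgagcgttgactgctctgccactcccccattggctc
Tac1: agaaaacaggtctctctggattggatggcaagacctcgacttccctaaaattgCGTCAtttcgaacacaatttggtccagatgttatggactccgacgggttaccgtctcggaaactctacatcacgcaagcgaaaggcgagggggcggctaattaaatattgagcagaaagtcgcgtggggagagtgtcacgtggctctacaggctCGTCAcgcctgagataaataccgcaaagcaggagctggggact
Nts: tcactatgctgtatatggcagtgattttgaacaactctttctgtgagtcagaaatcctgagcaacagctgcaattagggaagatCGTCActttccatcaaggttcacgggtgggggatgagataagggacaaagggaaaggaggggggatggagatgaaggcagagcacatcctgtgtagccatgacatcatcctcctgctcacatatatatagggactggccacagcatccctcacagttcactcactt
Cartpt: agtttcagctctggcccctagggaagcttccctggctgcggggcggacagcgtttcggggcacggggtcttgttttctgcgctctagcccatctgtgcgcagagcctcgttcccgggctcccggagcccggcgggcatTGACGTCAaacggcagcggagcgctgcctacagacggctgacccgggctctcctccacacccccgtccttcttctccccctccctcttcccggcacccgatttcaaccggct

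The full element was found in the Cartpt window alone among the 13 windows of the 8 genes, at bases 112 to 105 before the start. Over all 32851 mouse windows of the table, 1.55% held it. Tac1 had 2 cores, starting 197 and 43 bases before its start, Nts had 1 starting 166 bases before, and Tacr1 had 1. A core was found in 17.8% of all windows. Neither Pdyn window held a match. Matches are letters in the reference and say nothing of binding in these mice.

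Among the receptors, Tacr1 moved like the precursors. It encodes the NK1 receptor for substance P (ENSMUSG00000030043, chromosome 6) and was counted at 19.4, 27.9 and 26.8 CPM in WT, 9.02, 11.8 and 10.4 CPM in untreated and 13.3, 15.9 and 17.9 CPM in treated mice. The 3 groups did not overlap, with treated mice again in between. Tacr1 fell 2.37-fold in untreated mice (log2 fold change −1.25, standard error 0.17, adjusted p = 0.00343 by edgeR). Treated mice were at 63.7% of WT (log2 fold change −0.65, standard error 0.17, adjusted p = 0.0696 by edgeR) and above untreated mice by 0.59 (95% interval 0.21 to 0.98, adjusted p = 0.866 by edgeR). The ligand gene Tac1 and its receptor Tacr1 were thus both lower in untreated mice, by 1.93-fold and 2.37-fold.

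Oprd1, the delta receptor at which enkephalins act (ENSMUSG00000050511, chromosome 4), followed another order. The WT mice had 29.4, 26.1 and 21.1 CPM, the untreated mice 18.6, 19.0 and 21.0 CPM and the treated mice 16.0, 14.3 and 17.5 CPM. Treated mice were the lowest group and overlapped neither of the others, while WT mouse 3 and untreated mouse 3 differed by under 1%. Oprd1 fell by 0.68 on the log2 scale in treated against WT mice (standard error 0.14, 1.60-fold, adjusted p = 0.0288 by edgeR). Untreated against WT mice gave −0.39 (standard error 0.14, adjusted p = 0.0975 by edgeR) and treated against untreated mice −0.30 (95% interval −0.60 to 0.01, adjusted p = 0.889 by edgeR).

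Oprm1, the mu receptor (ENSMUSG00000000766, chromosome 10), gave only 17 to 38 reads per library. Its levels were 0.642, 0.881 and 0.631 CPM in WT, 1.23, 0.772 and 0.917 CPM in untreated and 1.13, 0.791 and 1.23 CPM in treated mice, which overlapped. The log2 fold changes of 0.44 (95% interval −0.27 to 1.14) in untreated and 0.55 (−0.15 to 1.24) in treated against WT mice were not called at this depth. This receptor is concentrated in striosomes, and a summed list of 7 other striosome markers was 456 to 537 CPM in WT, 325 to 358 CPM in untreated and 390 to 403 CPM in treated mice. None of the 7 was a DEG in untreated mice. At an adjusted p under 0.05 by edgeR 3 were lower, where 6.1% of all tested genes were. Kcnip1 went the other way (log2 fold change 0.32, adjusted p = 0.185 by edgeR).

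Oprk1, the kappa receptor for dynorphins (ENSMUSG00000025905, chromosome 1), was counted at 20.7, 23.7 and 29.4 CPM in WT, 21.5, 19.1 and 17.9 CPM in untreated and 29.8, 24.2 and 31.7 CPM in treated mice. Treated mice lay above all untreated mice and overlapped the WT mice. Their log2 difference from untreated mice was 0.55 (standard error 0.15, adjusted p = 0.821 by edgeR). Against WT the log2 fold changes were −0.34 (95% interval −0.68 to 0.01) in untreated and 0.21 (−0.12 to 0.55) in treated mice, and neither was called.

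Oprl1, the nociceptin receptor (ENSMUSG00000027584, chromosome 2), was the 1 member whose values were higher in every untreated than in every WT mouse. It had 27.0, 22.9 and 23.5 CPM in WT, 27.5, 30.0 and 29.7 CPM in untreated and 27.5, 21.6 and 23.9 CPM in treated mice. The gap was narrow, since WT mouse 1, untreated mouse 1 and treated mouse 1 lay within 1 CPM of each other. The log2 fold change was 0.25 in untreated against WT mice (95% interval −0.00298 to 0.50, adjusted p = 0.179 by edgeR), −0.01 in treated against WT (−0.26 to 0.24) and −0.26 in treated against untreated mice (95% interval −0.51 to −0.00556, adjusted p = 0.889 by edgeR).

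Counted over the 10 genes, 4 were DEGs in untreated against WT mice (Penk, Pdyn, Nts and Tacr1), all lower, beside 2.58% of all tested genes that were lower DEGs. At an adjusted p under 0.05 by edgeR there were 5 lower members, with Tac1 added, beside 6.1% of all genes. In 6 members every untreated mouse lay below every WT mouse, and in 1 above. The corresponding shares of all genes were 15.1% and 15%. The median log2 fold change was −0.67 over the 10 genes, −1.21 over the precursors and −0.34 over the receptors, against 0.02 over all tested genes.

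In treated against WT mice, Penk remained as the only DEG of the 10, beside 1.38% of all genes that were lower DEGs. With Oprd1, 2 members were lower at an adjusted p under 0.05 by edgeR (2.78% of all genes), and 5 had no overlap with WT in the lower direction (15.1% of all genes). The median log2 fold change was −0.37 over the members and 0.00 over all tested genes. This comparison and that of untreated against WT mice use the same 3 WT mice, so their values are set side by side here and do not count as separate evidence.

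Between treated and untreated mice, none of the 10 genes was a DEG (0.771% of all tested genes were, 0 members by DESeq2 as well) and none had an adjusted p under 0.05 by edgeR (0% of all tested genes had). At an unadjusted P under 0.05, which 5.5% of all genes passed, 6 members were higher in treated mice (Penk, Pdyn, Tac1, Nts, Oprk1 and Tacr1) and 1 was lower (Oprl1), where 2.5% of all genes were higher and 3% lower. DESeq2 gave 1 member, Tac1, an adjusted p under 0.05, where 0.292% of the genes it adjusted passed. In 6 members each treated mouse exceeded each untreated mouse (6.92% of all genes), and in 2, Oprd1 and Oprl1, each was lower (8.83%). The median log2 difference was 0.53 over the members and −0.01 over all tested genes.

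**Figure D2:**
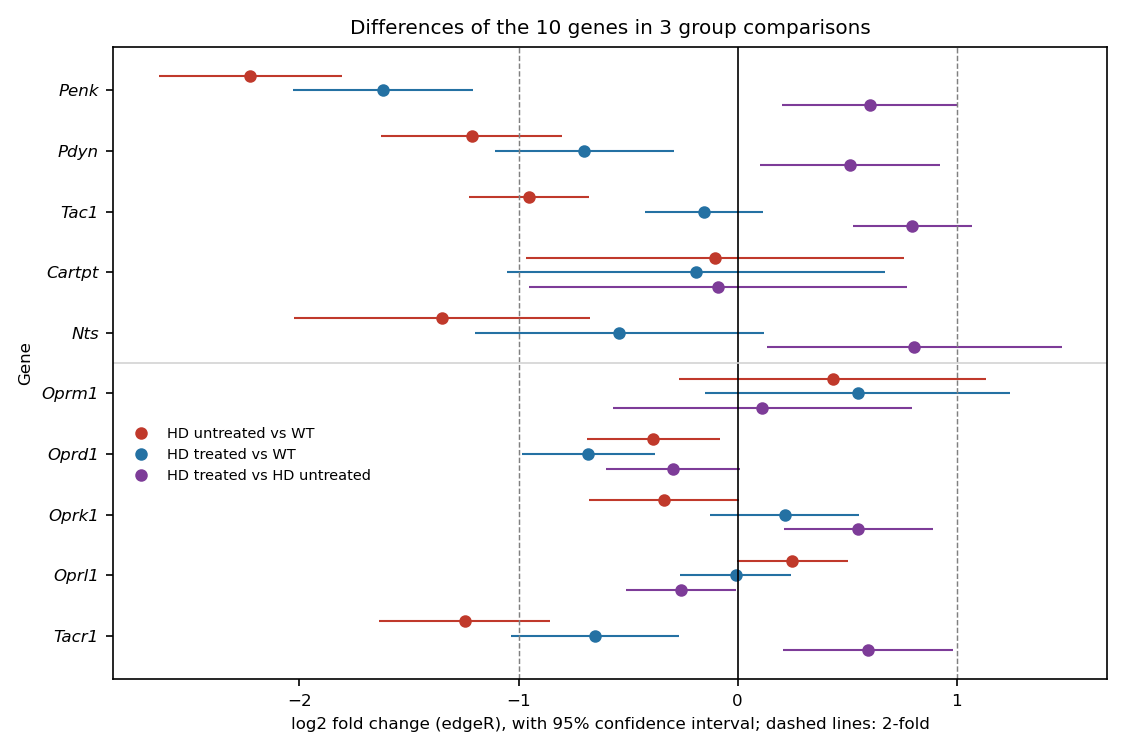
Log2 fold changes by edgeR (x axis) with 95% confidence intervals for the 10 genes (y axis) in the 3 group comparisons, with dashed lines at 2-fold. Penk lies at −2.22 in untreated and −1.62 in treated against WT mice, and Tac1 at −0.95 and −0.15.

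Ratios within a mouse do not depend on the scaling of libraries, so 3 of them were compared between groups. The ratio of Penk to Tac1 reads, an enkephalin gene of the indirect against a substance P gene of the direct pathway, was 5.13, 5.60 and 5.50 in WT, 1.78, 2.22 and 2.77 in the untreated mice and 1.93, 2.05 and 1.94 in the treated ones. Both HD groups lay below WT and overlapped each other. The mean log2 ratio differed from WT by −1.28 in untreated mice and by −1.46 in treated mice. Each gave p = 0.1 in a two-sided exact permutation test (0.15 after adjustment over 9 tests), and 3 mice against 3 cannot give less. Between the HD groups it differed by −0.17 (exact permutation p = 0.5). In treated mice, Penk was at 32.5% and Tac1 at 89.8% of the WT level.

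The ratio of Penk to Pdyn was 8.96, 8.53 and 8.59 in WT, 3.77, 4.74 and 4.32 in the untreated mice and 4.51, 5.37 and 4.06 in the treated ones. It was again lower in every HD mouse than in every WT mouse (log2 differences −1.03 and −0.91, exact permutation p = 0.1 for each), and the HD groups overlapped (0.12, exact permutation p = 0.5). The ratio of the delta to the mu receptor gene, Oprd1 to Oprm1, was 45.8, 29.6 and 33.5 in WT, 15.2, 24.6 and 22.9 in the untreated mice and 14.1, 18.1 and 14.2 in the treated ones. All HD mice were lower, with log2 differences from WT of −0.80 for untreated and −1.21 for treated mice (exact permutation p = 0.1 for each), and Oprm1 gave only 17 to 38 reads to each ratio. Between the HD groups it differed by −0.41 (exact permutation p = 0.2).

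**Figure D3:**
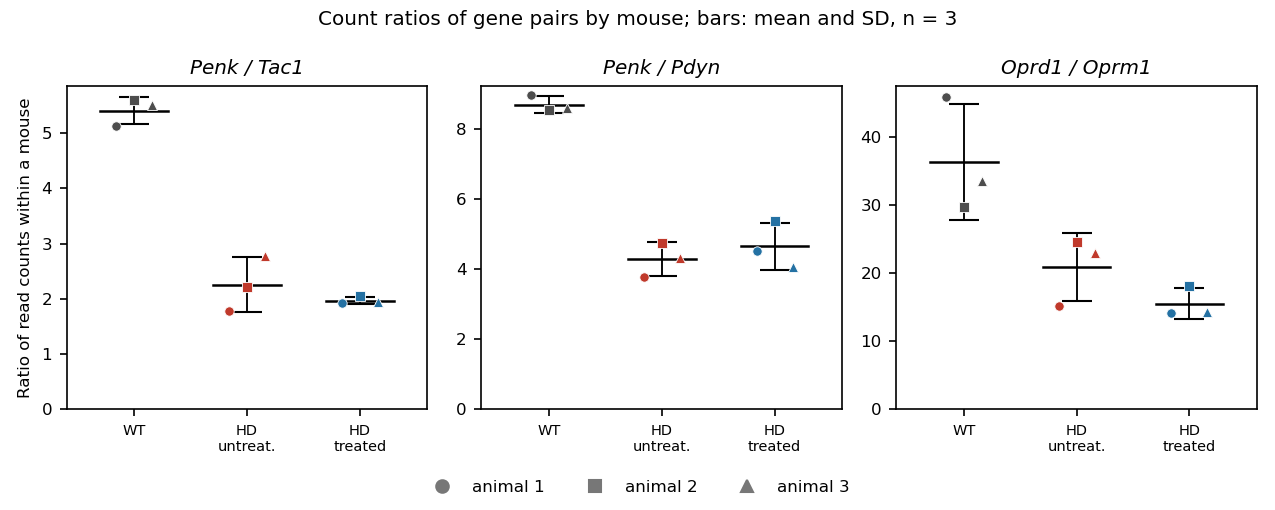
Ratios of read counts within a mouse (y axis, from 0) for 3 gene pairs in the 3 groups (x axis), 1 point per mouse, with bars for mean and SD. Penk to Tac1 sits between 5.13 and 5.60 in WT mice and between 1.78 and 2.77 in the 6 HD mice.

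Summed markers of the cells that make these peptides were lower in the same mice. Over 11 markers of projection neurons of both pathways, the sum was 7425 to 10059 CPM in WT mice. It was 2990 to 3510 CPM in untreated and 4232 to 4435 CPM in treated mice. Of the 11, 8 were lower DEGs in untreated mice, beside 2.58% of all tested genes. Markers of the indirect pathway without Penk were 710 to 894 CPM in WT, 295 to 360 CPM in untreated and 414 to 435 CPM in treated mice (3 of 6 lower DEGs in untreated mice). Those of the direct pathway were 284 to 407, 145 to 176 and 199 to 212 CPM in the same order (3 of 6). Not every marker was lower. Eya1 of the direct pathway was higher in every HD than in every WT mouse (log2 fold change 0.15 in untreated and 0.35 in treated mice). Ebf1 of that pathway and Sp9, Grik3 and Ptprm of the indirect one overlapped between untreated and WT mice. In these bulk samples, fewer cells of a type and less RNA per cell cannot be told apart. Cortical neuron markers moved the other way, with 4 of 6 higher DEGs in untreated mice, where 5.57% of all tested genes were. Of 6 T cell markers, 5 were higher DEGs in both HD groups against WT, beside 5.57% of all tested genes in untreated mice. At an adjusted p under 0.05 by edgeR, 4 were higher in untreated mice and 0 in treated mice. The summed level of the 5 was 0 to 0.465 CPM in WT and 3.65 to 11.9 CPM in treated mice. It was 2.53, 6.18 and 51.5 CPM in untreated mice 1, 2 and 3. Near 0 in WT, the 5 passed the count filter only through HD mice. Their higher direction was thus largely fixed by the filter and is no separate result. Cd4, the other marker, was lower in both HD groups, at 62.6 to 79.8, 14.5 to 21.8 and 31.5 to 32.5 CPM in WT, untreated and treated mice. With the cortical marker level as a covariate, an alternative chosen after the data were seen, Penk alone remained a DEG in untreated mice (log2 fold change −1.73, adjusted p = 0.0182 by edgeR). Pdyn then had −0.67, Nts −1.001 and Tacr1 −0.82. The cortical level was higher in every untreated mouse (1027 to 1211 CPM) than in every WT mouse (238 to 896 CPM). Covariate and group thus largely coincide, and this fit cannot divide the falls between them. The part of the tissue makeup in these differences was not tested.

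Sex could be held constant in 2 ways. Among the 4 libraries with Y-linked counts, the 3 WT mice and untreated mouse 1, the log2 fold changes were −2.60 for Penk, −1.40 for Pdyn, −2.28 for Nts and −1.44 for Tacr1 (adjusted p from 0.0656 to 0.215 by edgeR). That fit has 1 untreated mouse, which is assumed to vary like the WT mice, so the values are descriptive. Among the 5 libraries without them, treated mice exceeded the remaining untreated mice by 0.46 for Penk, 0.44 for Pdyn, 0.79 for Tac1 and 0.51 for Tacr1 (adjusted p from 0.201 to 0.515 by edgeR over these 4 genes). For Nts and Oprk1, also higher in treated mice, the difference ran from 0.50 to 1.05 and from 0.39 to 0.66 over all alternatives, this one included. For Oprl1, lower in treated mice, it ran from −0.35 to −0.17. The smallest difference over all alternatives was 0.40 for Penk, 0.28 for Pdyn, 0.62 for Tac1 and 0.41 for Tacr1.

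**Figure D4:**
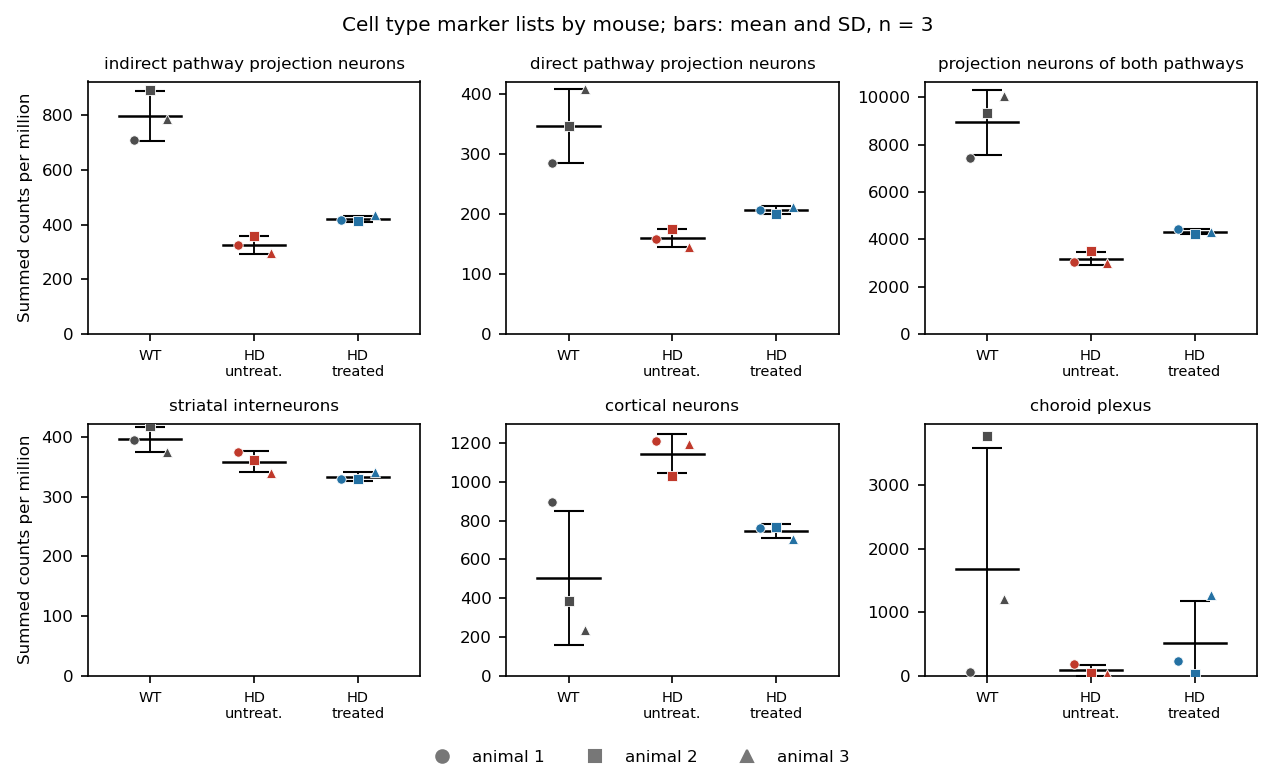
Summed CPM of 6 cell type marker lists (y axes, from 0) in the 3 groups (x axis), 1 point per mouse, with bars for mean and SD. Projection neuron markers are at 2990 to 3510 CPM in untreated and 4232 to 4435 CPM in treated mice, and cortical neuron markers are highest in the untreated mice, at 1027 to 1211 CPM.

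Other genes of peptide signalling were described from lists. Of 21 other peptide precursors 16 were tested, and 4 were DEGs in untreated against WT mice, all higher, beside 5.57% of all tested genes that were higher DEGs. Adcyap1, the precursor of PACAP, rose by 2.42 on the log2 scale (adjusted p = 0.0233 by edgeR) and Crh, the precursor of corticotropin-releasing hormone, by 1.12 (adjusted p = 0.0258 by edgeR). Cck, the precursor of cholecystokinin, rose by 1.10 as a DEG, with an adjusted p of 0.0559 by edgeR. The last of the 4, Vip, named after its value was seen, rose by 1.96 as a DEG (adjusted p = 0.0572 by edgeR). All 4 are also made by neurons of the cortex, and cortical neuron markers were higher in untreated mice too. A link between the 2 was not tested. In treated against WT mice, none of the 16 was a DEG (and 1 passed an unadjusted P under 0.05 by edgeR). Between the HD groups, Adcyap1 was lower in treated mice as a DEG (log2 difference −1.36, adjusted p = 0.886 by edgeR). The median of the list was 0.37 in untreated and −0.07 in treated against WT mice.

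Of 9 other receptors for these peptides 8 were tested. Tacr3, the NK3 receptor, fell with Tacr1 (−1.19, adjusted p = 0.0201 by edgeR), and Sorcs2, a member of the sortilin family, fell by 0.86 in untreated mice (adjusted p = 0.00372 by edgeR) and by 0.80 in treated mice (adjusted p = 0.00948 by edgeR). The neurotensin receptor gene Ntsr2 had −0.34 in untreated mice (adjusted p = 0.0663 by edgeR). In the G protein list, 5 of 22 genes were lower and 2 higher DEGs in untreated mice, where 2.58% and 5.57% of all tested genes were. Its lowest P-values belonged to Rgs9 (−1.79) and its partner Gnb5 (−1.04), which speed the shut-off of opioid and D2 receptor signals, and to Adcy5 (−1.71), the main striatal adenylyl cyclase. Their adjusted p-values were 0.000226 to 0.000387 by edgeR. In treated against WT mice they had −1.16, −0.78 and −1.24.

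Peptides are cut out of their precursors by a shared set of enzymes. Of 14 tested genes of prohormone processing, none was a DEG by edgeR in untreated mice (4 passed an unadjusted P under 0.05), and only Tpst1, a tyrosine sulfotransferase, passed the adjustment (−0.50, adjusted p = 0.00773 by edgeR). The convertase gene Pcsk1 had 0.67 and Qpct, which forms pyroglutamate ends, −0.32. Of 9 granule proteins, Chgb (0.43) and Scg3 (0.36) rose and Vgf fell by 0.46 at an adjusted p under 0.05 by edgeR, with a list median of 0.36. The 1 DEG of that list, Cadps2 (1.07, adjusted p = 0.157 by edgeR), was named after its value was seen. Of 12 peptidases, 2 were lower at an adjusted p under 0.05 by edgeR, beside 6.1% of all tested genes, and none was higher. At an unadjusted P under 0.05, 3 were lower and 2 higher, with a list median of −0.06. Mme, the enkephalin-cleaving neprilysin, fell by 0.90 (adjusted p = 0.0131 by edgeR) and Ace fell by 2.46 (adjusted p = 0.0279 by edgeR). Lnpep, the aminopeptidase that cleaves oxytocin, had 0.45 and was higher in every untreated than in every WT mouse (adjusted p = 0.0785 by edgeR). Ace is also made by the choroid plexus, whose 7 markers had 65.8, 3770 and 1217 CPM in sum in the WT mice, 187, 47.9 and 36.3 CPM in the untreated and 241, 38.9 and 1270.4 CPM in the treated mice. All 7 were lower DEGs in untreated mice, beside 2.58% of all tested genes. However, 1 passed the adjustment by edgeR and 6 overlapped between the groups, and the sum in WT mouse 1 was below that in untreated mouse 1.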

How the data were processed

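Striatal RNA of 9 mice was sequenced from 3′ ends, and the authors deposited raw read counts per Ensembl gene. The paper names STAR for alignment, whereas the submitters' processing notes list Trimmomatic 0.39, FastQC 0.11.9, HISAT2 2.2.1 and featureCounts 2.0.1. The mouse build and the use of molecular identifiers are not given in the sources used here. The pig counts were not used here. Gene symbols matched 52081 of 55357 IDs (94.08%).

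The counts were fitted with edgeR 4.0.16 in R 4.3.3 (filterByExpr, TMM, glmQLFit on all 9 libraries with the group alone as design, glmQLFTest). Standard errors are the log2 fold change over the square root of F, and log2 CPM used a prior count of 2. Ratios were compared by two-sided exact permutation. Members and gene lists were chosen with earlier results of these data known. Beside the members, the text names the 3 genes of each pathway list with the smallest P in untreated against WT mice, and for each member the 3 genes with the highest Pearson correlation over the 9 libraries. Promoter windows come from RefSeq (GRCm38.p6). Alternatives were no TMM factors, DESeq2 1.42.0, 2 other count filters, fits of only the compared groups, a replicate block, Y-linked counts as a covariate or restriction, other thresholds, a pseudocount of 5 in the ratios and each mouse left out. The edgeR fit of untreated against WT mice was also run on simulated counts with 200 changed genes. The other steps were not run on simulated data.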

Additional observations from a re-analysis of the deposited data

How the results depend on the processing

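Depth limits Oprm1 (17 to 38 reads per library), and 3 mice per group limit every test. Of the 10 genes, 4 were DEGs in untreated against WT mice and 1 in treated against WT, and those counts became 1 (untreated) with the cortical marker covariate and 2 (treated) with a covariate for Y-linked counts, when Nts was added at −1.80, or at an adjusted p under 0.05 by edgeR. With the Y-linked covariate Tac1 reached −1.002 in untreated mice and was a DEG. That covariate rests on untreated mouse 1 against untreated mice 2 and 3, since only the untreated group held both sexes. Untreated mouse 1 also had the lowest Nts level (1.86 CPM), so the values of this fit are descriptive. Leaving out each mouse gave 4 to 5 DEGs in untreated mice, since Tac1 passed 2-fold without WT mouse 1 (−1.09) or untreated mouse 2 (−1.03). It gave 0 to 1 between the HD groups, since Nts passed at 1.05 without untreated mouse 2. Adjusted p-values by edgeR crossed 0.05 for Nts in untreated mice without WT mouse 2 (0.0737) or WT mouse 3 (0.0583), for Oprd1 in untreated mice without WT mouse 3 (0.0410), and for Oprd1 in treated mice without WT mouse 2 (0.0856) or treated mouse 1 (0.0974), 2 (0.128) or 3 (0.0654). In treated mice Pdyn passed without WT mouse 1 (0.0133) or untreated mouse 3 (0.0458) and Tacr1 without WT mouse 1 (0.0229). By DESeq2, Pdyn (0.00488) and Tacr1 (0.00931) also passed in treated mice. Oprd1 in treated mice missed the adjustment without an expression filter (0.0577) and Nts in untreated mice with only the compared groups (0.0678). With the cortical covariate Pdyn, Tac1, Nts and Tacr1 missed it in untreated mice (0.0767 to 0.476). The cause of these shifts was not tested.

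Values near 0 changed sign. Oprl1 in treated against WT mice was 0.0502 without TMM factors, 0.0140 with at least 10 counts in every library and −0.10 to 0.0762 with each mouse left out. With the cortical covariate Cartpt (0.0585) and Oprk1 (0.0359) in untreated and Tac1 (0.0797) in treated against WT mice changed sign. With each mouse left out, Cartpt ran from −0.43 to 0.0456, from −0.71 to 0.13 and from −0.61 to 0.24 in untreated against WT, treated against WT and treated against untreated mice, and Oprm1 between the HD groups from −0.0231 to 0.32. The signs of the 9 ratio differences held under every alternative run for them.

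Mice with the same replicate number are different animals. The deviations of same-numbered mice correlated at −0.0805 to 0.236 (over 0.1 in 2 of 9 pairs). Those of mice with different numbers correlated at −0.282 to 0.156 (over 0.1 in 4 of 18 pairs). The 2 highest of all pairs shared a number, untreated and treated mouse 3 (0.236) and untreated and treated mouse 1 (0.191). Whether the numbers mark a shared factor was not tested. With a replicate block, 4, 1 and 0 members were DEGs in the 3 comparisons, as without it. Penk then had −2.22, −1.59 and 0.63, and Pdyn and Tacr1 passed the adjustment in treated mice (0.0224 and 0.0245 by edgeR).

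Over all tested genes, the number of DEGs moved by over 1.5 times in several fits. In untreated against WT mice it was 1588, but 933 with at least 10 counts in every library, 985 in the libraries with Y-linked counts (1 untreated mouse), 946 at P under 0.01 and 634 with the cortical covariate. In treated against WT mice it was 1016, but 506, 541 and 599 with that count filter, at P under 0.01 and with the Y-linked covariate. Between the HD groups it was 150, but 485 without a filter, 43 with that count filter, 237 in the libraries without Y-linked counts, 33 at P under 0.01, 251 without untreated mouse 2, 263 without untreated mouse 3, and 0 at an adjusted p under 0.05 by edgeR (1071 at an unadjusted P under 0.05, 48 by DESeq2).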

Other observations

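Genes with the pattern most like each member over the 9 libraries were taken from 14338 genes with a mean log2 CPM of at least 1, as a description, since the mice share groups and so any genes that differ between groups correlate. Penk was closest to Krt9 (Pearson r = 0.993), Clspn (0.992) and Hmgn1 (0.990), and Pdyn to Car12 (0.992), Dclk3 (0.983) and Kcnn3 (0.981). Tac1 was closest to Lhx8 (0.976), a transcription factor of cholinergic neurons, Slc35d3 (0.972) and Doc2b (0.971). Tacr1 was closest to Rgs8 (0.989), Fgf3 (0.986) and Chat (0.983), the acetylcholine-synthesising enzyme of the cholinergic interneurons that carry the NK1 receptor. Nts was closest to AC109138.8 (0.964), Sbf2 (0.963) and Syt10 (0.962). Lower values were found for Oprd1 with Gosr2 (0.958), Ran (0.958) and Mef2d (0.943), Oprl1 with Rbm20 (0.950), Gtf2ird2 (0.935) and Zfp697 (0.925), Oprk1 with Ftx (0.940), mt-Tq (0.939) and Hdac2 (0.921), Oprm1 with Iqcc (0.903), Dpy30 (0.886) and Cage1 (0.863), and Cartpt with Pcnx (0.877), Gpr165 (0.872) and Amer1 (0.864).

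Over the same 9 libraries, log2 CPM of Penk correlated with that of Pdyn at r = 0.954 and of Tacr1 at 0.951, and Tac1 with Tacr1 at 0.902, while Oprd1 and Tac1 had 0.0777 and Oprd1 and Oprk1 −0.36.

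Of 9 interneuron markers, 2 were lower DEGs in untreated against WT mice, beside 2.58% of all tested genes. At an adjusted p under 0.05 by edgeR 3 were lower, beside 6.1% of all tested genes, with a list median of −0.40. Chat fell by 1.41 on the log2 scale (adjusted p = 0.00364 by edgeR) and Pthlh by 1.08 (adjusted p = 0.0161 by edgeR), and Nos1 fell by 0.53 (adjusted p = 0.0373 by edgeR). Slc5a7 had −0.75 (adjusted p = 0.0576 by edgeR) and Npy 0.43 (adjusted p = 0.138 by edgeR). Pvalb (0.38), Th (−0.40), Sst (−0.12) and Lhx6 (−0.17) had unadjusted P over 0.05, and differences between markers were not tested. In treated against WT mice Chat had −0.89 (adjusted p = 0.0405 by edgeR), Nos1 −0.47 and Pthlh −0.30.

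Other marker lists, as summed CPM in WT, untreated and treated mice, ran over 310 to 343, 383 to 937 and 475 to 621 for microglia, 3731 to 4354, 3811 to 4242 and 3828 to 4285 for astrocytes, and 9190 to 10095, 7151 to 7839 and 7575 to 11445 for oligodendrocytes. General neuron markers ran over 3903 to 5304, 5017 to 6238 and 4616 to 4892, and matrix markers over 710 to 1023, 808 to 886 and 755 to 859. Lateral septum markers ran over 35.1 to 139, 34.8 to 90.8 and 43.9 to 96.1, and thalamus markers over 77.4 to 412, 131 to 172 and 142 to 197.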
